A study of Mus musculus with 11 samples.

Results

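RNA of the haemoglobin chains Hba-a1 and Hbb-bs and of 7 genes that macrophages are known to express was read across germ cell fractions of the testis. The macrophage genes were the lysozyme Lyz2, the complement genes C1qa, C1qb and C1qc, the MHC class II invariant chain Cd74, the growth factor receptor Csf1r and the lipopolysaccharide co-receptor Cd14. They were chosen by name, through the gene symbols of the array's annotation, and 8 of the 9 genes had a probe, out of 19406 named genes on the array. No probe carried the symbol Csf1r. The 8 genes had 19 of the 46643 probes of the array, none of them found through an older synonym alone.

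Spermatocytes, labelled as pachytene, and round spermatids were separated by centrifugal elutriation, which sorts testis cells by size, from C57Bl/6 mice aged 8 to 12 weeks. Each preparation pooled the cells of 10 mice and was hybridised to 1 Illumina mouse BeadChip array. The 4 groups were wild type spermatocytes (3 arrays), *Dnmt3L* heterozygous spermatocytes (2), wild type spermatids (3) and *Dnmt3L* heterozygous spermatids (3). Heterozygous males carried in all their cells a wild type *Dnmt3L* allele and an allele disrupted by a LacZ insertion, and no group was treated. Spermatocyte and spermatid arrays were on separate BeadChips, which means that chip and fraction cannot be told apart. Values are the authors' normalised expression on a log2 scale, on which every array had a median of 6.87, a lowest value of 6.40 and a highest of 13.99.

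Haemoglobin is a tetramer of alpha and beta chains that carries oxygen in red cells. Young red cells that have just lost their nucleus still hold globin messenger RNA, so that RNA travels with blood. Macrophages of the testis lie mostly in the interstitium between the tubules, beside the Leydig cells, and are known for taking up dying cells, dealing with iron from red cells and presenting antigen. Macrophages make the 3 chains of C1q, which starts the classical complement pathway, secrete lysozyme, and carry on their surface CD14, which hands lipopolysaccharide to TLR4, and the receptor of CSF1, on which their survival rests.

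The promoters of the 5 genes held in the sequence table are printed because these genes moved together between the fractions. Each runs from 250 bases before the transcription start to 50 bases from it, 5′ to 3′ on the gene's strand, as given by RefSeq on GRCm38.p6. The windows are chr11:32283422-32283721 (plus strand) for Hba-a1, chr7:103827879-103828178 (minus) for Hbb-bs, chr10:117282223-117282522 (minus) for Lyz2, chr4:136886151-136886450 (minus) for C1qb and chr4:136892865-136893164 (minus) for C1qc. Capitals mark matches to the motifs named after them.
Hba-a1: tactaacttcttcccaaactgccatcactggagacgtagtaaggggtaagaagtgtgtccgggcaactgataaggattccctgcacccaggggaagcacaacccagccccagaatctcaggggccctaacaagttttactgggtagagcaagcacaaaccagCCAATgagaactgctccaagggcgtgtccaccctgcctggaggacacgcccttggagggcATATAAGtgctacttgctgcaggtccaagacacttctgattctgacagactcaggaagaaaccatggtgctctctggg
Hbb-bs: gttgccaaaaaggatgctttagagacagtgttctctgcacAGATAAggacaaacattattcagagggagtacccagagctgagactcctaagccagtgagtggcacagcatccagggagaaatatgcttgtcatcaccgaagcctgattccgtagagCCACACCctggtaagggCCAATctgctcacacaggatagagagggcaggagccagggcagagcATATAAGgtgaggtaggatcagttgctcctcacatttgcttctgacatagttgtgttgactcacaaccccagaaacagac
Lyz2: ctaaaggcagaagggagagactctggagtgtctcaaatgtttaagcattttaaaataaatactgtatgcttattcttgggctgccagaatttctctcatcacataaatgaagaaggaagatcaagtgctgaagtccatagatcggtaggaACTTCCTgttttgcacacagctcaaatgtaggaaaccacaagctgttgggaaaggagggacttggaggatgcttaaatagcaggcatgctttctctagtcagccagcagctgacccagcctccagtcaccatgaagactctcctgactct
C1qb: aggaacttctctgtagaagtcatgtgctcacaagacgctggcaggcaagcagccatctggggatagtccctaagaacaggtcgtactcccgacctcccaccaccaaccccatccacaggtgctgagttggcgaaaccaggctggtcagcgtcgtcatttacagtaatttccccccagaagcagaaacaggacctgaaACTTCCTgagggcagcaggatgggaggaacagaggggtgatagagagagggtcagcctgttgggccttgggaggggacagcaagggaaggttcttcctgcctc
C1qc: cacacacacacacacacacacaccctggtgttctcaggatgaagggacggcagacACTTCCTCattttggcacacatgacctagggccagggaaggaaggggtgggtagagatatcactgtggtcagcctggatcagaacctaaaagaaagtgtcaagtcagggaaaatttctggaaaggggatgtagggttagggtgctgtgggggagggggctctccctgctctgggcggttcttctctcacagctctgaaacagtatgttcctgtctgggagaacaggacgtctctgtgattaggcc
Both globin promoters held CCAAT, at -88 to -84 from the start in Hba-a1 and at -76 to -72 in Hbb-bs, and both held ATATAAG, at -28 to -22 and at -30 to -24. The Hbb-bs promoter also held AGATAA, a form of the motif bound by GATA factors, at -210 to -205, and CCACACC at -93 to -87. Other forms of the GATA motif were not searched in any promoter. None of these 4 motifs matched in Lyz2, C1qb or C1qc. Read on the opposite strand, AGGAAGT, a form of the ETS motif, lay at -100 to -94 in Lyz2, at -53 to -47 in C1qb and at -195 to -189 in C1qc, where it overlapped GAGGAAG, a form of the PU.1 motif, at -194 to -188. Searched on both strands of 32851 promoter windows of this length, CCAAT was present in 37.4%, ATATAAG in 2.52%, AGATAA in 11.2%, CCACACC in 7.58%, AGGAAGT in 9.35% and GAGGAAG in 13.6%. TTGCAA (6.23% of windows) and TATAAA (13.6%) had no match in the 5. These matches describe letters and not sites in use.

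The fractions and arrays set the ground for the values that follow. By the paper the *Dnmt3L* probe also reads transcripts that start downstream of the LacZ insertion, so it does not check the genotype. In spermatocytes this probe read 8.10 to 8.27 in wild type and 8.67 to 8.82 in heterozygous arrays, and in spermatids 10.19 to 10.91 and 9.78 to 10.96. Of 23 measured genes of round spermatids, 18 were higher in spermatids and 0 lower by limma between the wild type fractions. Of 9 measured genes of pachytene spermatocytes 0 were called (4 at an unadjusted p under 0.05), with a median difference of -0.19. Over all tested probes 11.5% were higher and 15.5% lower there, and 0 lower of 9 is not far from that share. Arrays of a group correlated across all probes at 0.985 to 0.991 in wild type spermatocytes, 0.993 in heterozygous spermatocytes, 0.959 to 0.983 in wild type spermatids and 0.952 to 0.975 in heterozygous spermatids. The median SD of a probe within those groups was 0.0972, 0.063, 0.0993 and 0.134, against 0.28, 0.167, 0.684 and 0.313 for the 16 haemoglobin and macrophage probes that passed the filter on low values. The filter left out the 40% of probes with the lowest mean, kept 27986, and left out 3 probes of these genes.

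Hba-a1, the alpha chain of adult haemoglobin on chromosome 11, was above the array median in spermatocytes and close to the top of the scale in spermatids. In wild type spermatocytes it read 7.83, 7.69 and 8.26, and in heterozygous spermatocytes 8.12 and 8.41. In spermatids it read 13.47, 11.86 and 13.22 in wild type and 12.85, 12.67 and 12.73 in heterozygous preparations. The lowest spermatid array lay 3.46 above the highest spermatocyte array, and within the spermatids the wild type arrays enclosed the heterozygous ones. The difference between fractions was 4.93 in wild type cells (SE 0.362, limma adjusted p = 0.00025) and 4.49 in heterozygous cells (SE 0.405, limma adjusted p = 0.000661). Among 27986 probes this difference was second in size in wild type cells and first in heterozygous cells. In such bulk samples more cells of a type and more RNA per cell cannot be told apart. The array holds no probe named for Hba-a2, the neighbouring alpha gene with a nearly identical product, and how far the Hba-a1 probe reads it was not tested.

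**Figure D1:**
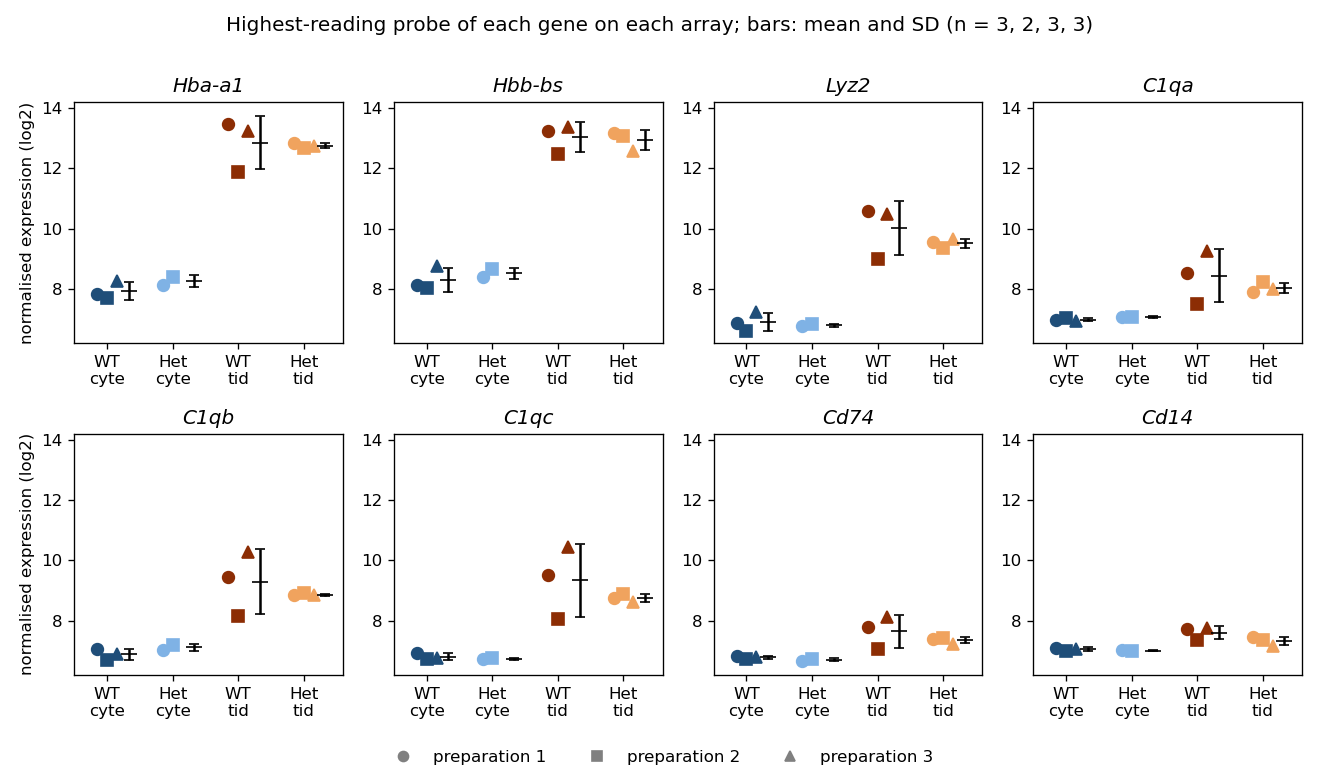
Normalised expression (log2) of the highest-reading probe of each of 8 genes on each array, by group: wild type (WT) and heterozygous (Het) spermatocytes (cyte) and spermatids (tid). Points are preparations, and bars are the mean and SD of 3, 2, 3 and 3 arrays. In every panel the spermatid arrays sit above the spermatocyte arrays, and in Hba-a1 the lowest spermatid array is at 11.86 and the highest spermatocyte array at 8.41.

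Hbb-bs, the beta chain that pairs with the alpha chain in this strain's adult haemoglobin, lies on chromosome 7 and had 9 probes. Its highest-reading probe gave 8.12, 8.02 and 8.75 in wild type and 8.40 and 8.65 in heterozygous spermatocytes. The spermatid arrays of this probe read 13.25, 12.46 and 13.38 in wild type and 13.16, 13.08 and 12.56 in heterozygous preparations. Again no spermatid array came near a spermatocyte array, the gap being 3.71, and wild type and heterozygous arrays overlapped in both fractions. The difference between fractions was 4.73 in wild type (SE 0.284, limma adjusted p = 0.000145) and 4.41 in heterozygous cells (SE 0.318, limma adjusted p = 0.000232).

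The other 8 probes of Hbb-bs differed between the fractions by unlike amounts. Probes 105570373, 102510156, 102510341, 102230086 and 101660133 read 7.62 to 8.79 in all spermatocyte arrays and 11.49 to 13.38 in all spermatid arrays, with wild type differences of 4.93, 4.59, 4.61, 4.60 and 4.55. Probe 105860114 differed by 3.97 (limma adjusted p = 0.00188), with spermatid arrays between 10.43 and 12.21. Together with Hba-a1, 8 of the 9 Hbb-bs probes took the 9 largest differences of all 27986 probes between the wild type fractions, and ranked 2 to 13 between the heterozygous fractions, where Hba-a1 was first. These probes share a gene and are no replicates of each other.

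Against those stood a pair of Hbb-bs probes with weaker or less even signal. Probe 102230020 read 7.21 to 7.70 in the spermatocyte arrays, 11.57, 9.86 and 11.83 in wild type spermatids, and 11.10, 11.49 and 8.15 in heterozygous spermatids. The third heterozygous array was only 0.445 above the highest spermatocyte array, the SD of that group was 1.82, and the difference was 3.69 in wild type (limma adjusted p = 0.0226) and 2.76 in heterozygous cells (limma adjusted p = 0.1). Probe 105690048 read 6.70 to 6.77 in spermatocytes and 6.87 to 7.86 in spermatids, a difference of 0.62 in wild type (limma adjusted p = 0.154) and 0.59 in heterozygous cells (limma adjusted p = 0.243). On this probe too all spermatid arrays were above all spermatocyte arrays, by as little as 0.096.

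**Figure D2:**
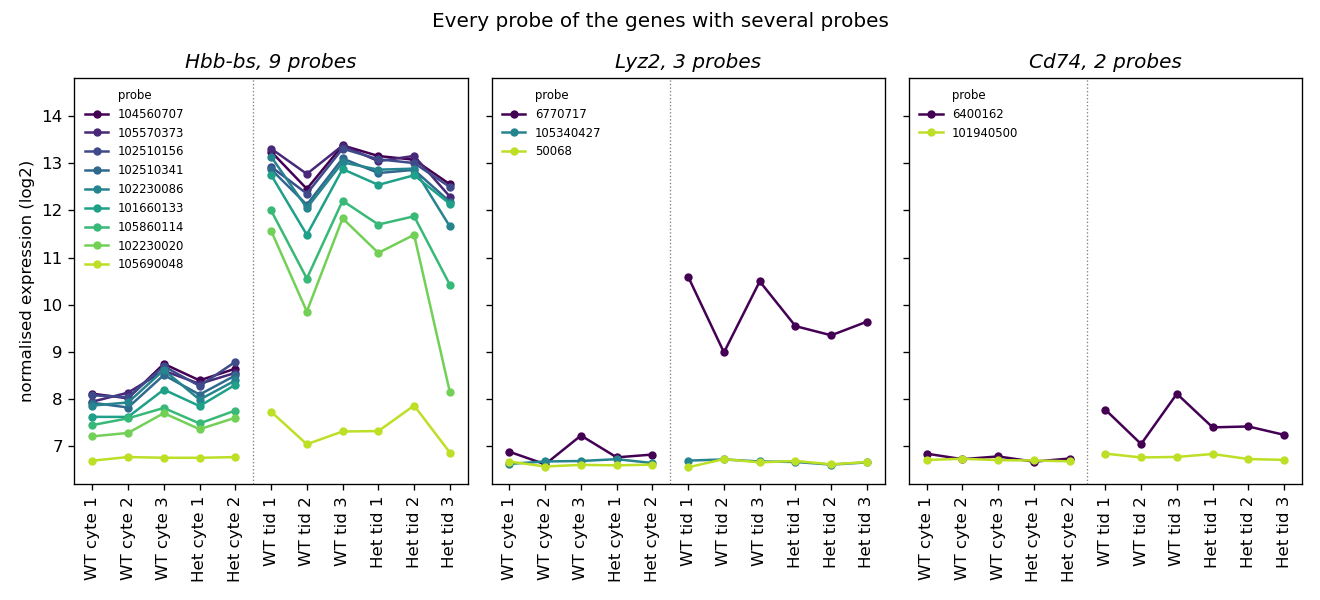
Normalised expression (log2) of every probe of Hbb-bs, Lyz2 and Cd74 on each of the 11 arrays, with wild type (WT) and heterozygous (Het) spermatocytes (cyte) left of the dotted line and spermatids (tid) right of it. Most Hbb-bs probes step up together, probe 102230020 falls to 8.15 on the third heterozygous spermatid array, and 2 probes of Lyz2 and 1 of Cd74 stay flat.

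Other globin genes on the array were flat. Hbb-bt, the neighbouring adult beta gene, read 6.81 to 7.26 over all 11 arrays, and the probe named Hbb-b2 read 6.89 to 7.14. The embryonic Hbb-y read 6.81 to 7.18, 2 probes of the embryonic Hbb-bh1 read 6.72 to 6.93, and the embryonic Hba-x read 6.57 to 6.76. The wild type difference was 0.15 for Hbb-bt (limma adjusted p = 0.424) and -0.04 for Hbb-b2 (limma adjusted p = 0.852). Since adult beta genes are close in sequence, how far a probe named for one reads another was not tested.

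Few genes of the red cell list were called. Of 31 listed genes, which include these other globins, 23 were on the array and 19 were tested, 4 of them globins, and 1 was higher and 0 lower in wild type spermatids, where 11.5% of all tested probes were higher and 15.5% lower, with a median difference of 0.03 beside -0.03 over all probes. The one gene was Tmod1, which caps actin filaments in the red cell membrane skeleton and in other cells, at 1.78 (SE 0.276, limma adjusted p = 0.00516) and at 1.69 in heterozygous cells, where without the second heterozygous spermatocyte array the list had 0 calls. The mean level of the 19 genes on single arrays was 7.24 to 7.37 in spermatocytes and 7.33 to 7.45 in spermatids. Alas2, the haem-forming enzyme of red cell precursors, read 6.95 to 7.63 in spermatocytes and 7.32 to 8.36 in spermatids, so that the fractions overlapped, and its wild type difference was 0.57 (SE 0.261, limma adjusted p = 0.242). The anion exchanger Slc4a1 differed by 0.11 (limma adjusted p = 0.485) and Klf1, the transcription factor of red cell precursors, by -0.22 (limma adjusted p = 0.237).

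Of genes that clear haemoglobin and its iron, 12 of 13 were tested, and 2 were higher and 1 lower in wild type spermatids, with a median difference of 0.30, a share called near the 27% of all probes. Slc40a1, which exports iron from macrophages, differed by 1.84 (limma adjusted p = 0.0122) and the haem-degrading enzyme Hmox1 by 1.27 (limma adjusted p = 0.0443), while Blvra, which turns biliverdin into bilirubin, differed by -0.41 (limma adjusted p = 0.0383). In heterozygous cells 0 were higher and 1 was lower (3 at an unadjusted p under 0.05), with 1.06 for Slc40a1 and 1.03 for Hmox1, both uncalled. Cd163, the scavenger receptor for haptoglobin-bound haemoglobin on macrophages, was below the filter, with a difference of 0.02.

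Lyz2, the lysozyme of macrophages and neutrophils on chromosome 10, followed the globins with a smaller step. Its highest-reading probe gave 6.88, 6.62 and 7.23 in wild type spermatocytes and 6.77 and 6.83 in heterozygous spermatocytes. It gave 10.59, 8.99 and 10.50 in wild type spermatids and 9.55, 9.35 and 9.64 in heterozygous spermatids. The spermatocyte arrays lay around the array median, the gap to the lowest spermatid array was 1.76, and the second wild type array was below all the heterozygous spermatid arrays. The difference was 3.12 in wild type (SE 0.374, limma adjusted p = 0.00192) and 2.72 in heterozygous cells (SE 0.418, limma adjusted p = 0.00503), ranks 22 and 18 among all probes. The other 2 Lyz2 probes read 6.56 to 6.73 over all arrays and were below the filter. The call on Hba-a1, Hbb-bs and Lyz2 held in both genotypes when any array was left out, with limma adjusted p at most 0.0327.

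The 3 chains of C1q lie side by side on chromosome 4 and moved together. C1qb read 7.05, 6.70 and 6.90 in wild type and 7.04 and 7.19 in heterozygous spermatocytes. Its values in spermatids were 9.45, 8.15 and 10.28 in wild type and 8.84, 8.91 and 8.84 in heterozygous arrays. The fractions were 0.962 apart, the second wild type spermatid array was lowest, the third highest, and the heterozygous arrays lay between them with an SD of 0.0406 against 1.07 in wild type. C1qc read 6.93, 6.74 and 6.76 in wild type and 6.72 and 6.77 in heterozygous spermatocytes, and 9.51, 8.06 and 10.44 against 8.77, 8.88 and 8.62 in spermatids. C1qa read 6.96, 7.04 and 6.94 in wild type and 7.06 and 7.08 in heterozygous spermatocytes, and 8.53, 7.51 and 9.27 against 7.91, 8.22 and 7.99 in spermatids. On each chain preparation 3 was thus the highest of the wild type spermatid arrays and preparation 2 the lowest.

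In wild type cells C1qc differed between fractions by 2.53 (SE 0.471, limma adjusted p = 0.0109), C1qb by 2.41 (SE 0.424, limma adjusted p = 0.00864) and C1qa by 1.46 (SE 0.352, limma adjusted p = 0.0299). In heterozygous cells the differences were 2.02 for C1qc (SE 0.527, limma adjusted p = 0.0405), 1.75 for C1qb (SE 0.474, limma adjusted p = 0.0468) and 0.97 for C1qa (SE 0.393, limma adjusted p = 0.182), the last not called. The wild type call of C1qa was lost when any of the 3 wild type spermatocyte arrays, either heterozygous spermatocyte array or the first wild type spermatid array was left out (adjusted p 0.0629 to 0.0914), with no filter (0.0518) and with only the groups compared in the fit (0.104). With only those groups in the fit C1qc also missed the threshold in wild type cells (0.0525). The heterozygous calls of C1qb and C1qc were lost with no filter (0.08 and 0.07) and without any array other than preparations 2 and 3 of the wild type spermatids (0.071 to 0.196 and 0.0653 to 0.164).

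Among other genes of complement, 15 of 27 listed were tested, and 2 were higher and 0 lower in wild type spermatids, a share near the 11.5% of all probes that were higher, with a median difference of 0.32. They were Serping1, the inhibitor of the C1 proteases, at 2.08 (SE 0.552, limma adjusted p = 0.0426) and Cd59b, which blocks the membrane attack complex, at 1.52 (SE 0.323, limma adjusted p = 0.0182). In heterozygous cells Cd59b was called at 1.53 (limma adjusted p = 0.0274) and Serping1 was not at 1.59 (limma adjusted p = 0.159).

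Cd74 and Cd14, both on chromosome 18, had the smallest steps. Cd74, which guards the peptide groove of MHC class II until antigen is loaded, read 6.85, 6.73 and 6.79 in wild type and 6.68 and 6.74 in heterozygous spermatocytes. In spermatids it read 7.78, 7.05 and 8.11 in wild type and 7.40, 7.42 and 7.24 in heterozygous preparations. The fractions were 0.204 apart, and again the second wild type spermatid array was lowest and the third highest. Cd74 differed by 0.86 in wild type (SE 0.22, limma adjusted p = 0.037) and by 0.65 in heterozygous cells (SE 0.245, limma adjusted p = 0.148), and its second probe read 6.68 to 6.85 on all arrays and was below the filter. The wild type call was lost with no filter (0.0619), with only the groups compared in the fit (0.119), and without any array other than the second wild type and the second heterozygous spermatid arrays (0.0558 to 0.117).

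Of the MHC class II genes and their chaperones, 12 of 15 were tested, and 4 were higher and 2 lower in wild type spermatids, where 11.5% of all probes were higher and 15.5% lower, with a median difference of 0.22. Mif, a cytokine that binds CD74 and is made by many cells, differed by 1.63 (limma adjusted p = 0.00783), and the peptide-loading chain H2-DMa by 1.07 (limma adjusted p = 0.00942). Its partner chain H2-DMb1 differed by -0.998 (limma adjusted p = 0.00562). H2-Aa, the alpha chain of the class II molecule I-A, was below the filter at 6.62 to 6.74 on all arrays, while 3 probes of its beta chain H2-Ab1 read 7.61 to 8.28 in spermatocytes and 7.65 to 9.03 in spermatids. In heterozygous cells 2 of the list were higher and 1 lower.

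Cd14 read 7.11, 6.999 and 7.07 in wild type and 7.02 and 7.004 in heterozygous spermatocytes. In spermatids it read 7.72, 7.35 and 7.75 in wild type and 7.46, 7.36 and 7.18 in heterozygous preparations. The lowest spermatid array was 0.0659 above the highest spermatocyte array. Cd14 differed by 0.55 in wild type (SE 0.113, limma adjusted p = 0.0164) and by 0.32 in heterozygous cells (SE 0.126, limma adjusted p = 0.161), and the wild type call was lost without the second wild type spermatocyte array (0.0593), the first wild type spermatid array (0.062) or the third (0.0514).

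Partners of CD14 were called about as often as all probes. Of 24 listed genes of CD14 and TLR4 signalling 16 were tested, and 2 were higher and 2 lower in wild type spermatids, as in heterozygous ones, with a median wild type difference of 0.04, where 27% of all probes were called between the wild type fractions. Tlr4 itself differed by -0.01. The cytokine Il1b differed by 1.04 (limma adjusted p = 0.0165), the NF-kappaB subunit Rela by -1.40 (limma adjusted p = 0.00505), and Irak3, a brake on TLR signalling, by -1.004 (limma adjusted p = 0.0105). For Csf1r, which had no probe, the genes of its ligands and signalling stand in: 17 of 25 were tested, and 1 was higher and 1 lower in wild type spermatids, with a median of 0.12, beside the same 27% of all probes called. The phosphatases Ptpn6 and Inpp5d, both negative regulators in blood cells, differed by 0.51 (limma adjusted p = 0.0204) and by -0.96 (limma adjusted p = 0.000225), and both probes of the ligand Csf1 were below the filter at 6.63 to 6.98.

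Counted over probes, 15 of the 16 tested were higher in spermatids and 0 lower between the wild type fractions, where 11.5% of all tested probes were higher and 15.5% lower (27% called in all). Between the heterozygous fractions 11 of 16 were higher and 0 lower, where the background was 8.65% higher and 9.15% lower (17.8% in all). By the highest-reading probe, 8 of 8 genes were called in wild type and 5 of 8 in heterozygous cells. The median difference of the 16 probes was 3.83 in wild type and 3.24 in heterozygous cells, beside -0.03 and -0.02 over all probes, and 9 of the 16 belong to Hbb-bs. All 6 spermatid arrays were above all 5 spermatocyte arrays on 16 of 16 probes and on 14.3% of all tested probes. The filter used the mean over all arrays, so a probe low in spermatocytes could pass it through its spermatid values. The probes it left out, 2 of Lyz2 and 1 of Cd74, did not separate the fractions. Their lowest spermatid array minus their highest spermatocyte array was -0.115, -0.12 and -0.024. The counts over tested probes thus rest in part on the filter. The contrasts of fractions within a genotype compare different arrays. Their p-values yet share an estimate of spread over all 11 arrays and a joint adjustment, so the calls in the 4 groups are not independent.

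**Figure D3:**
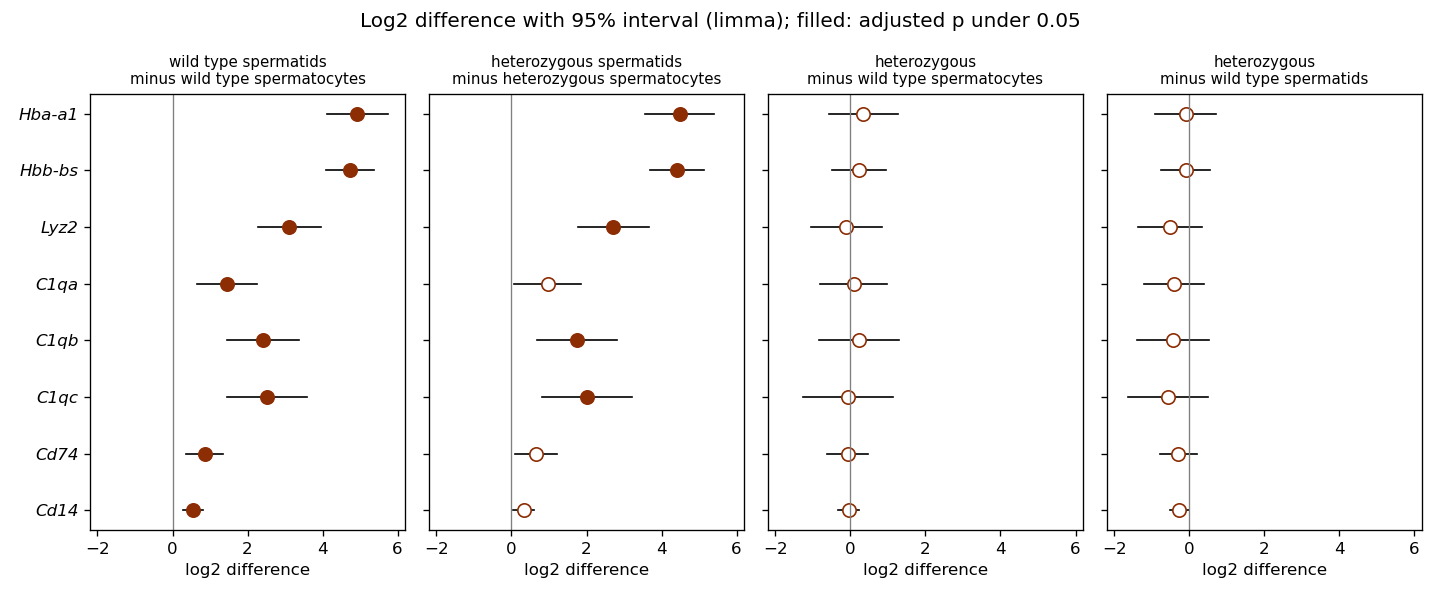
Log2 difference of each gene's highest-reading probe in the 4 contrasts, with the 95% interval from limma. Filled points have an adjusted p under 0.05. The 8 genes are called in wild type cells and 5 of them in heterozygous cells, from 4.93 for Hba-a1 down to 0.55 for Cd14, and in the panels of genotype 0 are called.

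Genotype made no called difference in spermatocytes. The differences, heterozygous minus wild type, were 0.34 for Hba-a1 (95% interval -0.58 to 1.26), 0.23 for Hbb-bs, -0.11 for Lyz2, 0.09 for C1qa, 0.23 for C1qb, -0.07 for C1qc, -0.08 for Cd74 and -0.05 for Cd14. Of the 16 probes 0 were called by limma and 0 had an unadjusted p under 0.05, with 0.1% of all probes called higher and 0.0858% lower (0.186% in all). On 12 of the 16 the heterozygous mean was higher. Among the spermatocyte arrays, the third wild type array was highest on 7 of the 16 probes and the second heterozygous array on 5, and the second wild type array was lowest on 8.

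In spermatids 15 of the 16 probes had a lower mean in heterozygous than in wild type preparations, and 0 were called, where 0.268% of all probes were called higher and 0.172% lower (0.44% in all). The differences were -0.10 for Hba-a1 (95% interval -0.92 to 0.72), -0.10 for Hbb-bs (-0.74 to 0.54), -0.51 for Lyz2 (-1.36 to 0.34), -0.40 for C1qa, -0.43 for C1qb, -0.58 for C1qc (-1.65 to 0.49), -0.29 for Cd74 and -0.27 for Cd14 (-0.53 to -0.02). Cd14 alone passed 0.05 without adjustment, and its limma adjusted p was 0.189. On 10 of the 16 probes all heterozygous spermatid arrays lay between the lowest and the highest wild type array, as on 12.8% of all probes.

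These genotype values depended on single wild type arrays. The second wild type array was the lowest of the 6 spermatid arrays on 10 of the 16 probes (12.9% of all probes) and the third heterozygous array on the other 6 (19.6% of all probes). The third wild type array was highest on 12 probes (16.2% of all), the first on 3 and the second heterozygous array on 1. The wild type SD was above the heterozygous SD on 12 of the 16, as on 36.3% of all probes.

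Without the second wild type spermatid array, 6 of the 8 genes were lower in heterozygous spermatids, when 1.91% of all probes were called in either direction. C1qc then differed by -1.22 (limma adjusted p = 0.0128), Lyz2 by -1.03 (0.00679), C1qb by -1.004 (0.021), C1qa by -0.87 (0.0236), Cd74 by -0.59 (0.0105) and Cd14 by -0.40 (0.0213). The globins were not called, with -0.59 for Hba-a1 (0.0623) and -0.39 for Hbb-bs (0.452). Without the third wild type spermatid array instead, C1qa and C1qb differed by 0.02 and 0.06 and 0 probes were called. No other array, left out alone, gave a call in this contrast.

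**Figure D4:**
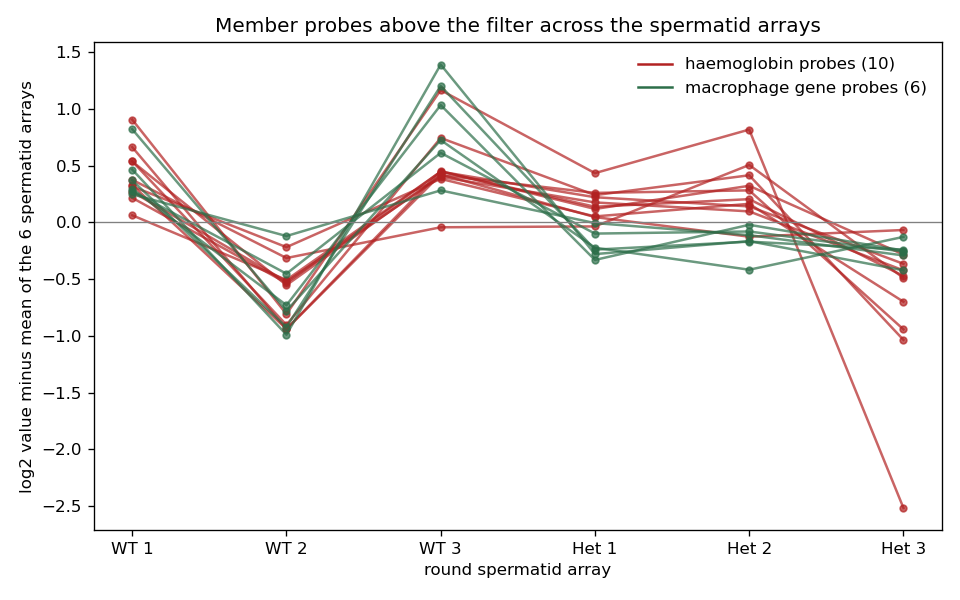
Log2 value minus the mean of the 6 spermatid arrays for the 16 probes above the filter, with lines joining the values of a probe across wild type (WT) and heterozygous (Het) spermatid preparations. Haemoglobin probes are red and macrophage gene probes green. The second wild type array is lowest on 10 probes and the third heterozygous array on 6, with probe 102230020 of Hbb-bs far below the rest there, and the third wild type array is highest on 12.

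The change of the fraction difference with genotype was tested as an interaction. All 16 probes had a smaller difference between fractions in heterozygous than in wild type cells, with a median of -0.33 beside 0.01 over all probes. None of the 16 was called (0 at an unadjusted p under 0.05 by limma), and of all 27986 probes 0% were called and 566 had an unadjusted p under 0.05. The interval of the interaction ran from -1.67 to 0.79 for Hba-a1 and from -2.11 to 1.09 for C1qc.

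Other macrophage genes were split between those that stepped up and those near the floor of the array. Of 38 listed genes 36 were on the array and 26 tested, and 11 were higher and 1 lower in wild type spermatids, where 11.5% of all probes were higher, with a median difference of 0.37. Laptm5, a lysosomal membrane protein of blood cells, read 6.91, 6.73 and 7.09 in wild type and 6.85 and 6.80 in heterozygous spermatocytes, and 10.05, 8.48 and 10.71 against 8.96, 9.58 and 8.91 in spermatids. As with C1q, the second wild type spermatid array was lowest and the third highest. Laptm5 differed by 2.84 (SE 0.473, limma adjusted p = 0.00688), the actin-bundling protein Aif1 by 2.58 (SE 0.286, limma adjusted p = 0.00146) and the Fc receptor gamma chain Fcer1g by 2.00 (SE 0.431, limma adjusted p = 0.0192). The others called higher were Mrc1, Folr2, Cd209f, Cx3cr1, Fcgr2b, Msr1, Vsig4 and Trem2, from 1.76 for Mrc1, the mannose receptor, to 0.52 for Trem2, a lipid-sensing receptor. The gene called lower was the Fc receptor Fcgr3, at -0.59.

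In heterozygous cells 2 of the 26 tested genes of the macrophage list were higher and 1 lower, a share higher that does not exceed the 8.65% of all probes. The genes higher were Laptm5 at 2.32 (limma adjusted p = 0.0237) and Aif1 at 2.17 (limma adjusted p = 0.00431), while Fcer1g at 1.51 was not called (limma adjusted p = 0.0833). Unlike Laptm5, Aif1 was well above the array median in spermatocytes, with means of 8.83 in wild type and 9.37 in heterozygous arrays. Its spermatid mean was 11.41 in wild type and 11.54 in heterozygous arrays, where Laptm5 had 9.75 and 9.15. The count of 11 in wild type cells depended on single arrays. It was 6 without any wild type spermatocyte array, 7 without the third wild type spermatid array, 3 without the first, 16 without the second, and 3 with only the groups compared in the fit. The share of all probes called between the wild type fractions moved too. It was 27% with all arrays, 17% without the third wild type spermatid array, 15.2% without the first and 28.6% without the second. With only the groups compared it was 24.8%. Between the heterozygous fractions this share was 17.8% with all arrays, 16.2% without the third wild type spermatid array and 19.2% without the second. The count of 2 in heterozygous cells became 1 without either heterozygous spermatocyte array, 4 without the third and 8 without the second wild type spermatid array.

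Several genes that define blood leukocytes or macrophages stayed near the floor in both fractions. The leukocyte surface phosphatase Ptprc read 6.53 to 6.79 on its 4 probes over all arrays, the adaptor Tyrobp 6.58 to 6.86, the lysosomal protease Ctss 6.66 to 6.82 and the macrophage marker Adgre1 6.59 to 7.13 on its 2 probes, all below the filter. With no filter Adgre1 differed by 0.31 between the wild type fractions (SE 0.0557, limma adjusted p = 0.0161) and by 0.07 between the heterozygous ones (limma adjusted p = 0.721). The mean of the 26 tested genes was 7.08 to 7.15 on the spermatocyte arrays, 7.42 to 8.11 on the wild type spermatid arrays and 7.55 to 7.56 on the heterozygous ones. The wild type values in preparations 1, 2 and 3 were 7.83, 7.42 and 8.11, so that the preparations ranked as they did for C1q. Most other lists had the same order, among them peritubular genes at 9.075, 8.46 and 9.45, Leydig cell genes at 8.33, 7.695 and 9.57, Sertoli cell genes at 8.11, 7.88 and 8.59, and round spermatid genes at 11.67, 11.4 and 11.87. Spermatogonial genes at 7.611, 7.57 and 7.804, B cell genes at 7.027, 6.889 and 7.046 and red cell genes at 7.328, 7.327 and 7.407 also ranked so. The lists of MHC class II, complement, CD14, CSF1 receptor and iron genes did too. The remaining lists did not. Endothelial genes were at 7.401, 7.207 and 7.347, neutrophil genes at 7.459, 7.505 and 7.388, and pachytene spermatocyte genes at 10.47, 10.59 and 10.19. T cell genes were at 8.167, 8.172 and 8.245, and platelet and mast cell genes at 6.996, 7.001 and 7.031.

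**Figure D5:**
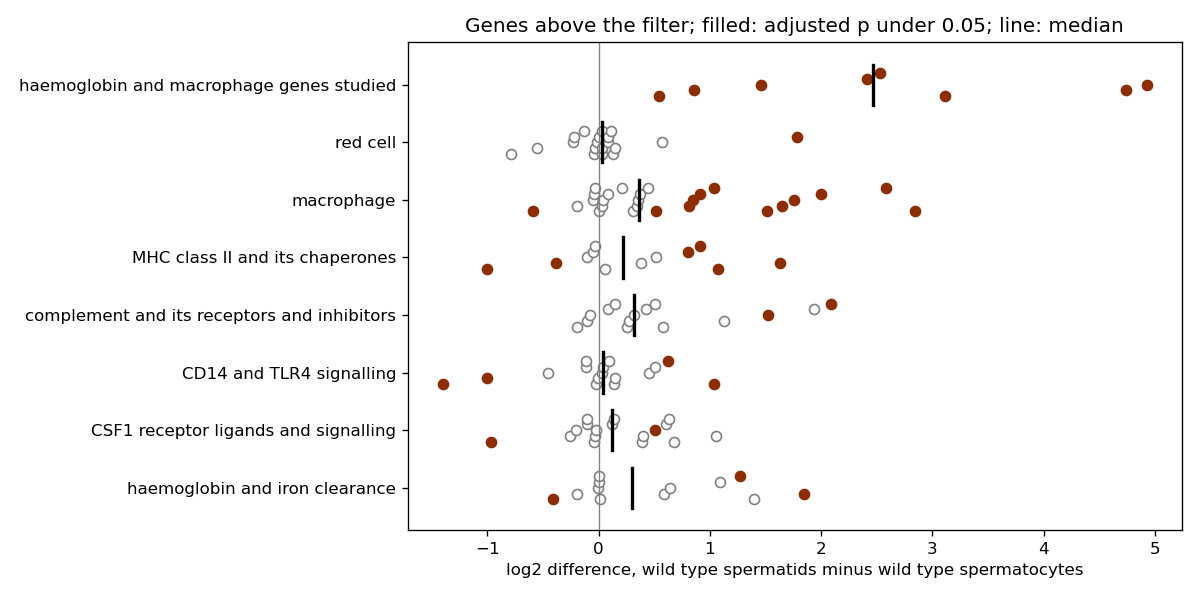
Log2 difference between wild type spermatids and wild type spermatocytes for each gene above the filter, in the 8 genes studied and 7 lists of related genes. Filled points have an adjusted p under 0.05 from limma and the vertical line is the median of a list, 0.03 for red cell and 0.37 for macrophage genes.

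Markers of other testis cells were read on the same arrays. Of 7 tested genes of peritubular cells, the contractile cells around the tubules, 3 were higher in wild type spermatids. Of all tested probes 11.5% were higher and 15.5% lower there. The 3 were the matrix proteoglycan Dcn by 3.43, the smooth muscle actin Actg2 by 2.88 and Acta2 by 0.95. Dcn read 6.86 to 7.49 in wild type spermatocytes and 9.30 to 11.93 in wild type spermatids. Actg2 read 9.60 to 10.13 and 12.79 to 12.82, and Acta2 7.98 to 8.17 and 8.72 to 9.44. Unlike Dcn, Actg2 was thus well above the array median in spermatocytes and nearly the same on all wild type spermatid arrays. Whether its RNA came from peritubular cells or from germ cells was not tested. The median difference of the peritubular list was 1.21 in wild type and 0.74 in heterozygous cells. The mean of the list was 7.46 to 7.61 on spermatocyte arrays, 8.46 to 9.45 on wild type and 8.53 to 8.93 on heterozygous spermatid arrays. Of 11 tested Leydig cell genes 0 were called higher and 1, the cholesterol carrier Star, was lower at -1.16. The median difference of the Leydig list was yet 0.61 in wild type and 0.39 in heterozygous cells, beside -0.03 and -0.02 over all probes. The mean of this list was 7.47 to 8.61 on spermatocyte arrays and 7.70 to 9.57 on spermatid arrays. Of 14 tested Sertoli cell genes 0 were called (1 at an unadjusted p under 0.05 by limma), with a median wild type difference of 0.21. The part of these cells in the values of the haemoglobin and macrophage genes was not tested.

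The probes whose values over the 11 arrays were most like those of Hba-a1, by Pearson's r, were 4 probes of Hbb-bs at 0.994 to 0.997 and Slc22a14 at 0.993. For Lyz2 they were the histone gene H2ac22 at 0.987, H2ac10 at 0.986, Alox5ap, a protein of leukotriene synthesis, at 0.985, the histone gene H2ac12 at 0.985 and Eif4ebp1, a repressor of translation, at 0.985. For C1qb they were C1qc at 0.995, the syndecan Sdc3 at 0.991, Alox5ap at 0.989, the folate receptor Folr2 at 0.989 and Cyba, a subunit of the phagocyte oxidase, at 0.988. These values describe the step between fractions and the order of the spermatid arrays on the same 11 arrays.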

How the data were processed

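RNA of 11 preparations was measured on Illumina mouse arrays. By the methods the authors exported bead signals with BeadStudio, subtracted the mean of the negative controls, and applied a variance-stabilising transformation and quantile normalisation with lumi. No versions are given in the sources used here. The deposited values are log2 expression. A second deposited table was left out, since the names of its 22 columns match no sample. Groups came from the labels, which give 2 heterozygous spermatocyte preparations where the methods give 3 for every group.

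Probes were named through the platform annotation, in which 32794 have 1 symbol, 55 several and 13794 none. A mean per group was fitted over all 11 arrays with limma 3.58.1 in R 4.3.3 (7 residual and 1.89 prior degrees of freedom), after leaving out the 40% of probes with the lowest mean. P-values were adjusted at 0.05 by Benjamini-Hochberg, jointly for the 4 contrasts and all probes, and for the interaction by itself. Nothing in the labels says how separate the preparations of a group are beyond their numbers, so p-values measure the spread between these arrays, whose number limits the precision.

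Every probe of the 9 genes is reported. A gene's highest-reading probe is that with the highest mean over all arrays, and from each list the 3 called genes with the largest wild type difference are named (2 where none was called). Other list genes were named after their values were seen. The genes and lists were chosen with earlier results of these data known. The CCAAT motif, the TATA form shared by the globin promoters and the ETS form were chosen after the promoters had been read. The fit was tested on simulated data. As alternatives the filter was dropped or set to 60%, each contrast was adjusted alone, only the compared groups were fitted, and trend and robust priors, array weights, a replicate block (statmod 1.5.0) and leaving out arrays were tried. Figures were drawn with matplotlib 3.10.9.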

Additional observations from a re-analysis of the deposited data

How the results depend on the processing

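The number of probes called between wild type fractions was 15, between 11 and 16 when an array was left out and between 12 and 16 under the other settings. Between heterozygous fractions it was 11, with 9 to 14 and 9 to 13. Between genotypes in spermatocytes it was 0 throughout, as for the interaction. In spermatids it was 0, rose to 1 with array weights (Cd14 at -0.36, limma adjusted p = 0.0295, when 4.58% of all probes were called) and to 6 without both spermatid arrays numbered 2 (5.4% of all probes), and was 0 to 6 when an array was left out. This pair was chosen for leaving out with earlier results of these data known.

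Direction changed only in uncalled genotype and interaction values when an array was left out. In spermatids the differences then ran from -0.59 to 0.21 for Hba-a1, -0.39 to 0.0861 for Hbb-bs, -0.87 to 0.0169 for C1qa and -1.004 to 0.0595 for C1qb, in spermatocytes from -0.26 to 0.0442 for Lyz2, and in the interaction from -1.15 to 0.0404 for C1qc and -0.51 to 0.0202 for Cd74. Hba-a1 reversed at 0.2093 and 0.0889 without wild type spermatid array 1 and array 3, and Hbb-bs at 0.0096, 0.0753 and 0.0861 without wild type spermatid array 1, wild type spermatid array 3 or heterozygous spermatid array 3. The cause was not tested.

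With the replicate number as a block the estimated correlation was 0.00984, and 15, 11, 0, 0 and 0 probes were called. Deviations of same-numbered arrays of different groups correlated at -0.256 to 0.329. Arrays with unlike numbers were not compared in this way, so these values do not settle whether the numbers pair the arrays. Calls over all probes moved more: adjustment within each contrast left 1 probe between genotypes in spermatocytes and 0 in spermatids, where the joint adjustment gave 52 and 123. Array weights called 13406 probes between wild type and 8144 between heterozygous fractions, 373 between genotypes in spermatocytes and 1281 in spermatids, against 7546, 4983, 52 and 123. With only the groups compared these were 6940, 2222, 117 and 24, and leaving out an array gave 4243 to 9127, 1658 to 7505, 12 to 134 and 24 to 1339. Trend and robust priors called 98 between genotypes in spermatocytes, and without both spermatid arrays numbered 2 the count between genotypes in spermatids was 1511. Alternatives starting from bead signals were not run, since those columns match no sample. Signal over background could not be judged from the deposited log2 values, and 3 of the 19 probes were below the filter.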

Other observations

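Lists of other blood cells had 3 to 6 tested genes each. Over all tested probes 27% were called between the wild type fractions and 17.8% between the heterozygous ones (8.65% higher). With so few genes, 0 or 1 call cannot be told apart from these shares. Of 6 tested T cell genes 0 were called in wild type cells (3 at an unadjusted p under 0.05 by limma), with Cd247, the zeta chain of the T cell receptor, at 0.84 (limma adjusted p = 0.0788) and Cd3d at 0.80 (limma adjusted p = 0.157). Of 3 tested B cell genes 0 were called (1 at an unadjusted p under 0.05), and in heterozygous cells Pax5 was higher at 0.51 (limma adjusted p = 0.0489). Of 4 tested neutrophil genes 0 were called (0 at an unadjusted p under 0.05), with Camp at -0.16 and Mmp9 at -0.08. Of 4 tested platelet and mast cell genes 0 were called (1 at an unadjusted p under 0.05), with Itga2b at 0.44 (limma adjusted p = 0.161).

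Of 10 tested endothelial genes 1 was higher in wild type spermatids, Egfl7 at 0.88 (limma adjusted p = 0.0417). Of 13 tested spermatogonial genes 5 were higher and 1 lower, among them the transcription factor Sohlh1 at 1.62, the stem cell factor receptor Kit at 1.55 and Id4 at -1.28. Of all tested probes 11.5% were higher and 15.5% lower between these fractions. Slc11a1, the metal transporter of macrophage phagosomes, was the one gene of the haemoglobin and iron list called between genotypes, at -0.71 in heterozygous spermatids (SE 0.173, limma adjusted p = 0.0311). In that contrast 0.44% of all probes were called, and 0 when it was adjusted alone. Of the other lists, the endothelial gene Kdr was called in spermatids, at 0.41, and the round spermatid gene Spag4 in spermatocytes, at 0.50.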
